A study of Mus musculus with 8 samples.

Results

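The nuclear-encoded genes of the mitochondrial respiratory chain were examined in RNA-Seq libraries of whole mouse kidney. Members were chosen by gene name: symbols of the Nduf (complex I), Sdh (complex II), Uqcr (complex III), Cox4 to Cox8 (complex IV), and Atp5 (complex V) families, without names that mark a pseudogene, kept where at least 10 counts were found in at least 4 libraries. Of the 55367 gene names in the table, 88 fitted the name rule and 86 were kept: 40 for complex I, 4 for complex II, 8 for complex III, 17 for complex IV, and 17 for complex V. The 2 names not kept, Cox7b2 and Cox8c, had 0 counts in every mouse. The rule used no difference between the genotypes.

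The series compares 4 Maf conditional KO mice (KO) with 4 Maf flox/flox mice (flox/flox) to ask what the transcription factor c-Maf does in the adult kidney. All were C57BL/6J mice aged 8 weeks, and both genotypes carry floxed alleles of Maf. According to the methods of the study, only the KO mice carry CAG-Cre-ER TM, a Cre recombinase that is active throughout the body once tamoxifen (TAM) is given, and both genotypes received TAM. Loss of c-Maf and activity of Cre therefore cannot be told apart, and loss in the kidney and loss in other organs cannot be told apart either.

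The respiratory chain sits in the inner mitochondrial membrane. Complexes I and II pass electrons from NADH and succinate to ubiquinone, complex III passes them on to cytochrome c, complex IV reduces oxygen, and complex V uses the proton gradient to make ATP. Most subunits are encoded in the nucleus and a small set in the mitochondrial genome, and the proximal tubule, which reabsorbs most of the glomerular filtrate, is among the cells richest in mitochondria.

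The deposited values are read counts per gene, and levels below are CPM, that is counts scaled to a common library size, after TMM scaling. Totals ranged from 16649129 to 22990257 counts per mouse. Maf, the deleted gene, had 178 to 671 counts in KO and 5988 to 7746 counts in flox/flox mice (log2 fold change -4.05 ± 0.51 SE, adjusted p = 0.0115, edgeR quasi-likelihood test). Genes of the mitochondrial genome took 17.1% to 32.3% of the counts, with the highest shares in KO mouse 1 (32.3%) and flox/flox mouse 4 (25.5%). Xist, which is expressed in female cells, was nearly absent from KO mouse 1 (2 counts) and from flox/flox mice 3 (6) and 4 (22), whereas the other 5 had 17618 to 22387 counts; the labels do not give the sex. The adjusted p of Maf was 0.108 in those 5 mice alone and 0.0556 without the 2 mice of highest mitochondrial share. The tissue label is whole kidney although the extraction text of the labels names liver: the proximal tubule transporter Slc34a1 stood at 1481 to 4532 CPM, and the hepatocyte gene Alb at 0.661 to 8.85 CPM.

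The RefSeq promoter table held 67 of the 86 members, and Cox6a2 was not among them. The promoter of Ndufc2 is shown because this gene changed between the genotypes, and that of Cox6a1 because it is the broadly expressed counterpart of Cox6a2, the other member that changed. Capitals mark matches on either strand to the core GCGCATGC of nuclear respiratory factor 1 (NRF1), a transcription factor known to control many respiratory chain genes. Both are 5′ to 3′ in the direction of the gene, from GRCm38.p6, and end just before the annotated gene.
Ndufc2, chr7:97399753-97400002, plus strand: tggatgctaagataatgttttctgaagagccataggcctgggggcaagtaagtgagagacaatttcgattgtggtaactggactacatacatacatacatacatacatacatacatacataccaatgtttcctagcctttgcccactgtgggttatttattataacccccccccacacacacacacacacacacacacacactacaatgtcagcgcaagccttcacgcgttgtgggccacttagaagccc
Cox6a1, chr5:115348982-115349208, minus strand: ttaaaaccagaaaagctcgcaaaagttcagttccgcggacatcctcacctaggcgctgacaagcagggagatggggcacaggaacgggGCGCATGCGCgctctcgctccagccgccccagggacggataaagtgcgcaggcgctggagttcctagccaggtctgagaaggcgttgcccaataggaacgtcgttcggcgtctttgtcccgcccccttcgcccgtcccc

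The NRF1 core was found in 14.9% of the 67 matched promoters (250 bases before to 50 after the start), against 3.05% of the promoters of all 27025 genes in the table. Windows of 30 bases around it are shown for Sdhb, Uqcr11, and Ndufa8, of the 10 members that hold it those with an unadjusted p under 0.05. The other holders had log2 fold changes of 0.34 (Atp5g2), 0.27 (Atp5l), -0.13 (Uqcrc1), -0.14 (Ndufa11), -0.20 (Ndufa6), -0.23 (Cox6a1), and -0.33 (Atp5k). The windows were thus picked by p, and a link between the core and the fold changes was not tested. Capitals mark the core, which reads GCATGCGC where it lies on the opposite strand.
Sdhb, chr4:140961206-140961235, plus strand: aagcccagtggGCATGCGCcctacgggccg
Uqcr11, chr10:80406807-80406836, minus strand: atcgccttcacGCATGCGCtatacgtctgc
Ndufa8, chr2:36049328-36049357, minus strand: tcgctggagacGCATGCGCagatggtaccg

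Other motifs searched on both strands were the ETS core CCGGAAG (25.4% of the matched members, 9.93% of all genes), the YY1 core AANATGGCG (14.9% and 2.76%), the element TCAAGGTCA bound by estrogen-related receptors (2.99% and 0.466%), and the TRE core TGANTCA (10.4% and 8.97%). The sequence TGCTGAC, a half-MARE (a part of the Maf recognition element), was in 0 of the 67 matched members and in 5.28% of all genes. Cox6a2 was not among the 67, so its promoter was not searched for this or any other motif. All shares given are matches of letters in these windows only.

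Of the 86 members, 2 were lower in KO mice at an adjusted p under 0.05 and 0 were higher, where 1.58% of the 20149 genes tested were called lower and 0.586% higher. The genes called were Cox6a2, a subunit of complex IV, and Ndufc2, a subunit of complex I. Cox6a2 reached 10 counts only in the 4 flox/flox mice, so it was kept as a member only through the genotype where it is higher. At an unadjusted p under 0.05, 14 members were lower and 1 was higher, where 7.44% and 6.58% of all tested genes were. For 76 of the 86 members, or 88.4%, the log2 fold change was negative, against 49.5% of all tested genes, and the median was -0.14 over the members and 0.0027 over all tested genes. A median of this size corresponds to a difference of -9.56%. Scaled by library totals without mitochondrial and rRNA genes in place of TMM, 59 of the 86 were negative and the median was -0.044 over the members and 0.0956 over all tested genes. In 11 members all 4 KO mice lay below all 4 flox/flox mice, and in 0 members all lay above, where 5.62% and 4.17% of all tested genes did so.

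**Figure D1:**
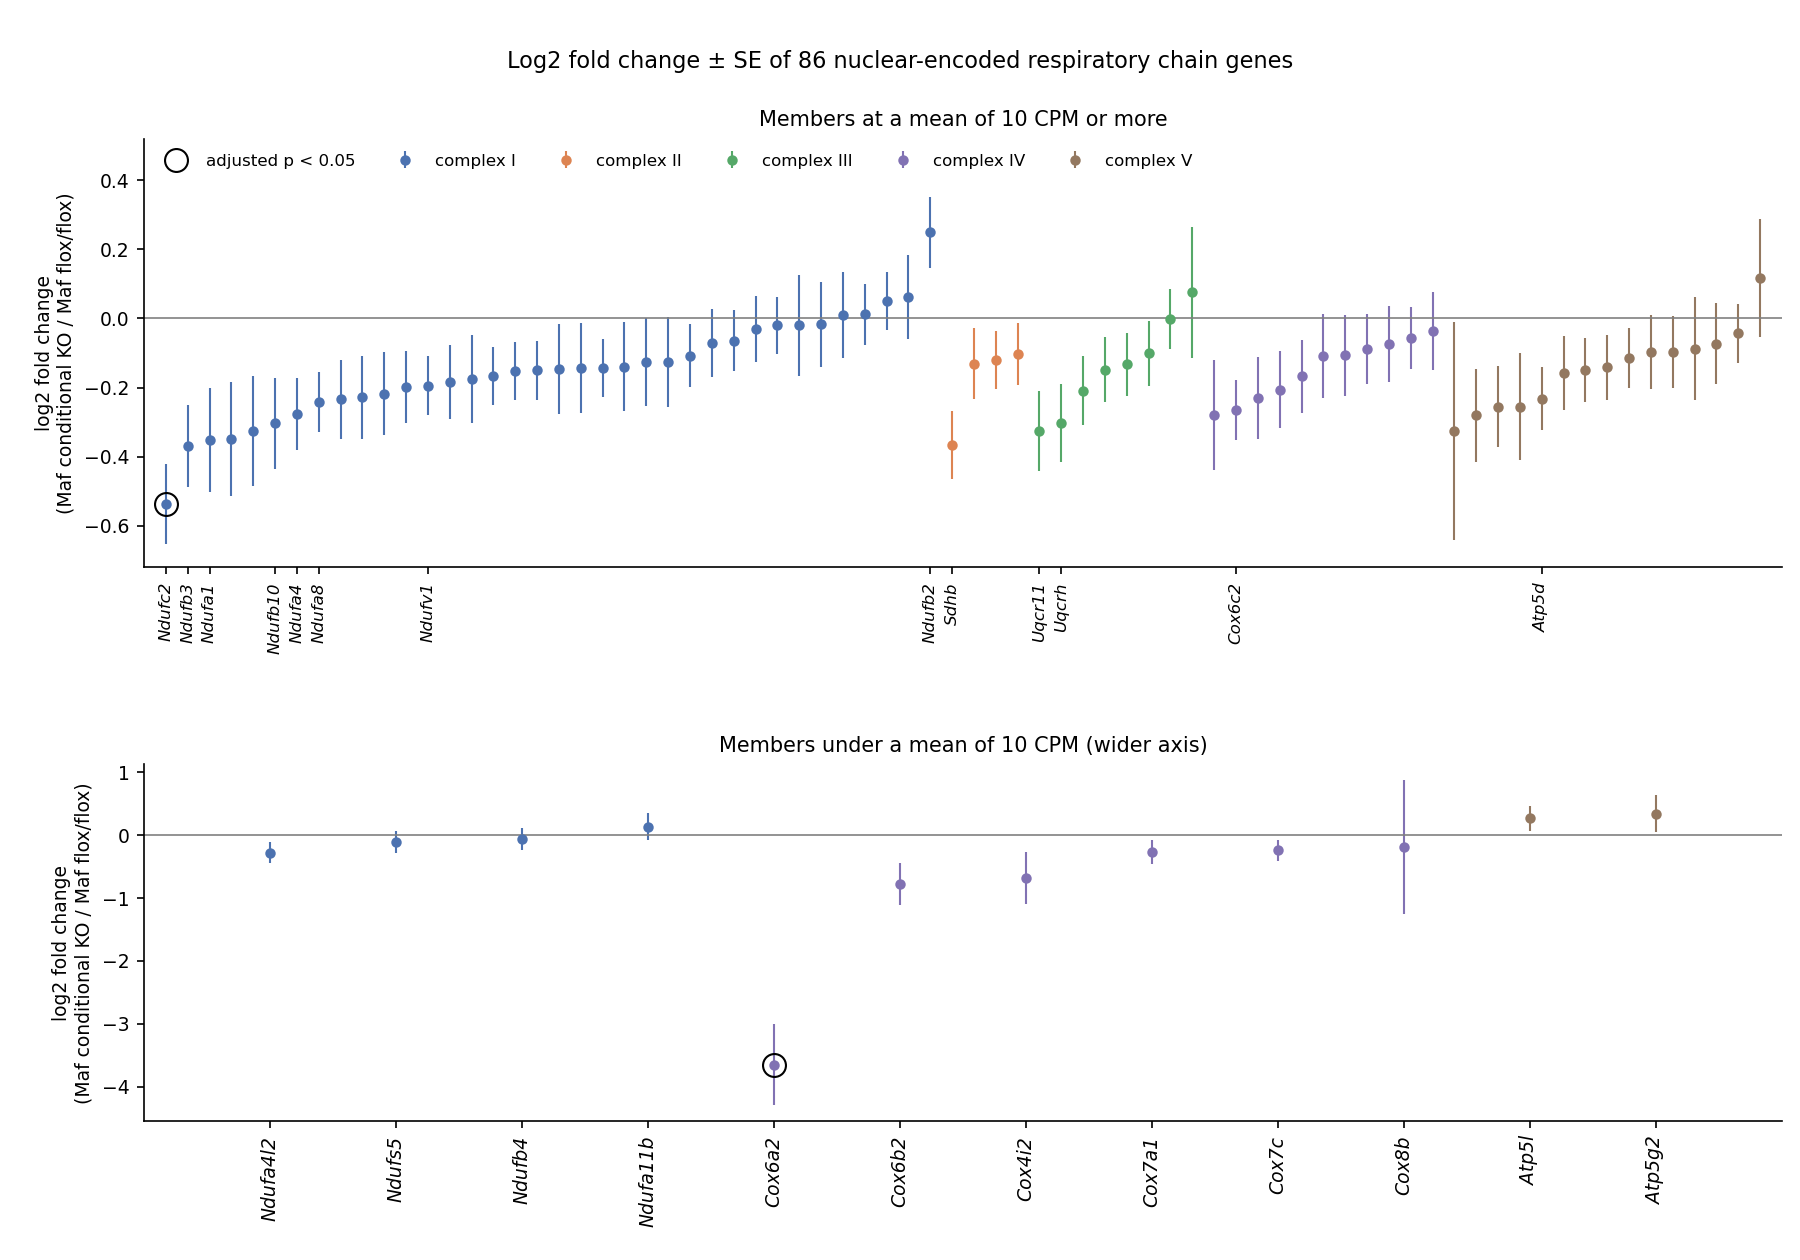
Log2 fold change of each member, KO over flox/flox, with its standard error, ordered within each complex; the upper panel holds the 74 members at a mean of 10 CPM or more, with names for those at an unadjusted p under 0.05, and the lower panel the others on a wider axis. Circles mark Cox6a2 (-3.65) and Ndufc2 (-0.54), and 76 of the 86 points lie below 0.

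Most members lay near each other and close to 0, apart from a few such as Cox6a2, Cox6b2, Cox4i2, and Ndufc2. The quartiles of the members' log2 fold changes were -0.24 and -0.073. Members differ from the average gene in length and level: the median exonic length was 1486.5 bases against 3351 over all tested genes, and 74 of the 86 had a mean of 10 CPM or more. Over the 9790 tested genes at 10 CPM or more, 56.2% had a negative log2 fold change and the median was -0.026. Over the 3038 other tested genes under 1000 bases, 58.5% were negative and the median was -0.075. With a curve of level against gene length fitted for each mouse, 72 of the 86 members were negative with a median of -0.12.

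The summed level of all members was 9192, 10838, 10123, and 9930 CPM in KO mice 1 to 4, and 10457, 10841, 11607, and 11462 CPM in flox/flox mice 1 to 4. On average KO mice had 10020 ± 677 and flox/flox mice 11092 ± 538 CPM (SD, n = 4), a difference of -9.66%. The lowest value belonged to KO mouse 1, and KO mouse 2 lay above flox/flox mouse 1, so the groups overlapped. The difference of the summed level was similar in the complexes, at -9.85% for complex I, -11.1% for complex II, -8.88% for complex III, -9.64% for complex IV, and -9.40% for complex V. The 13 subunits encoded by the mitochondrial genome summed to 28585 to 61280 CPM in KO and 28333 to 48103 CPM in flox/flox mice. None of these 13 was called, their median log2 fold change was 0.13, and their highest sum was in the mouse with the lowest sum of the nuclear-encoded members.

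**Figure D2:**
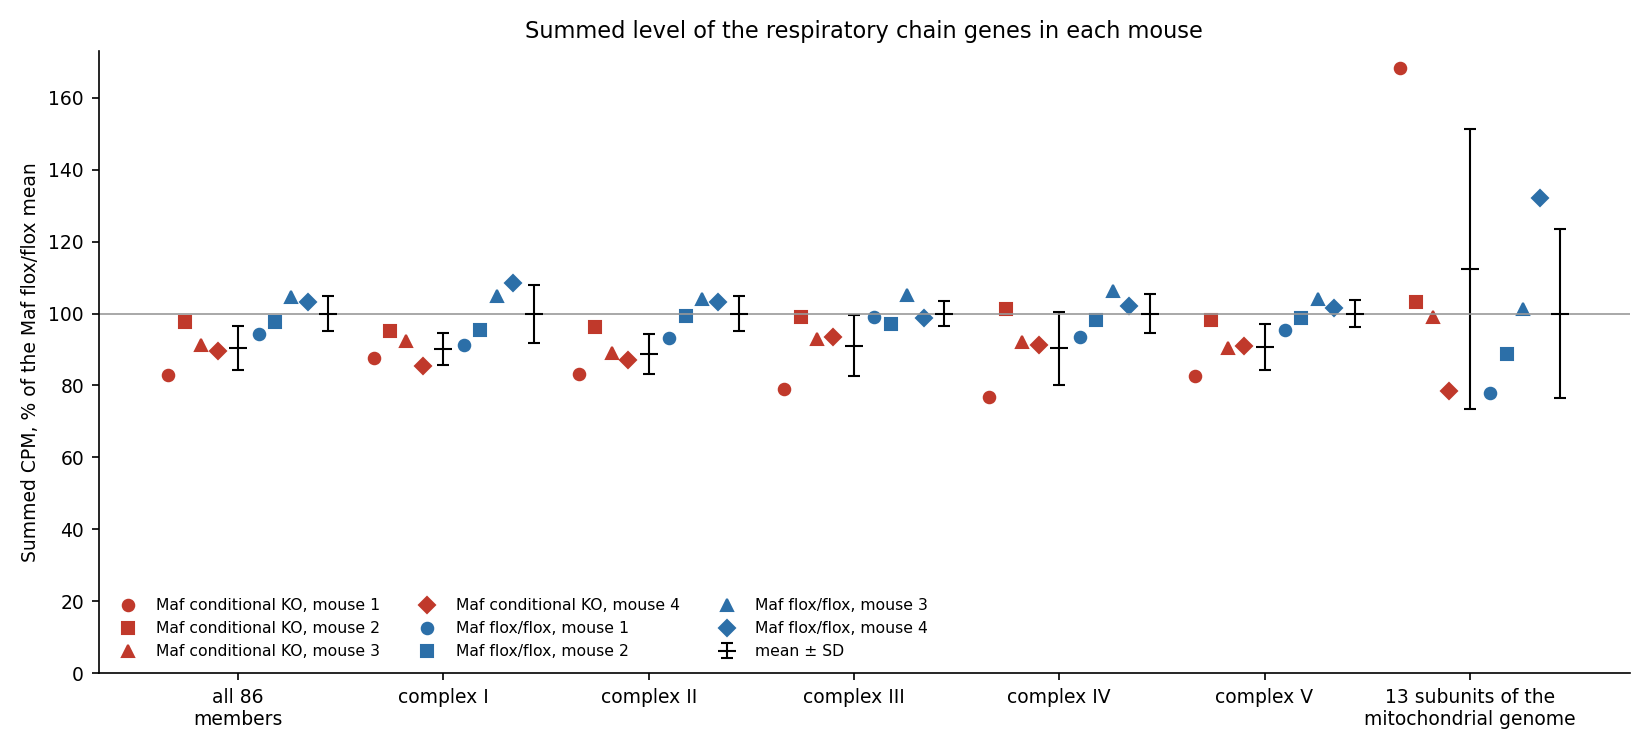
Summed CPM of all members, of each complex, and of the 13 subunits of the mitochondrial genome in each mouse, as a percentage of the flox/flox mean; each marker is 1 mouse and bars are mean ± SD (n = 4). KO mouse 1 is lowest for all members and highest for the mitochondrial genome, and the groups overlap.

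The shift was not spread evenly over the mice. Centred on each gene's mean, the median over the members was -0.22, 0.058, -0.033, and -0.085 (log2) in KO mice 1 to 4 and -0.036, 0.048, 0.14, and 0.15 in flox/flox mice 1 to 4. The 3 values farthest from 0 belonged to the 3 mice with low Xist, negative in the 1 KO mouse and positive in the 2 flox/flox mice. Among the 5 mice with over 1000 Xist counts (3 KO, 2 flox/flox), 50 of the 86 members had a negative log2 fold change and the median was -0.036. In that fit, where 2.22% of all genes were called lower, 1 member was called, Cox6b2 (-1.10, adjusted p = 0.0421), while Cox6a2 stood at -2.43 (adjusted p = 0.0606) and Ndufc2 at -0.30 (adjusted p = 0.0707). With all 8 mice and Xist (log2) as a covariate, the median was -0.16 and 6 members were called lower, Atp5g3, Cox6a2, Ndufc2, Ndufs7, Sdhb, and Uqcr11, where 4.23% of all genes were called lower. Without KO mouse 1 alone, 69 members were negative with a median of -0.11 and 2 were called lower, where 1.51% of all genes were. Without KO mouse 1 and flox/flox mouse 4, the mice with the highest share of mitochondrial counts, 65 members were negative with a median of -0.083 and 1 was called lower, Cox6a2, where 1.28% of all genes were.

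**Figure D3:**
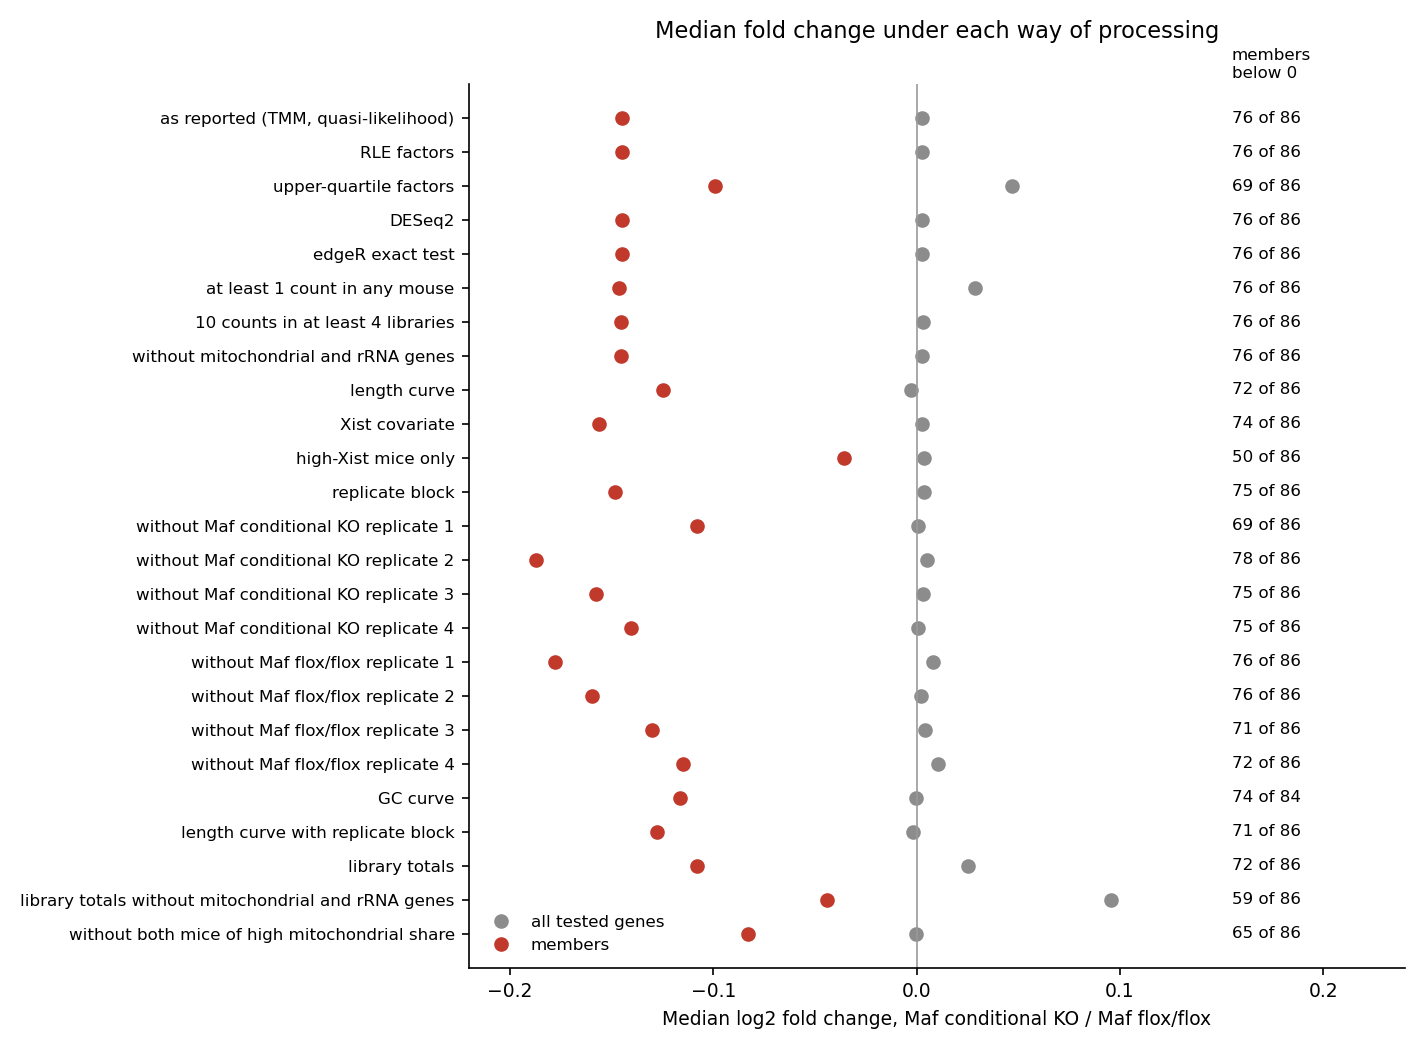
Median log2 fold change of the members (red) and of all tested genes (grey) under each way of processing the counts, with the number of members below 0 on the right. The members lie below all tested genes in each setting, and nearest to 0, at -0.036, when only the 5 high-Xist mice were used.

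Complex I, the NADH dehydrogenase, had 1 of 40 members called lower and 0 higher, with 34 negative and a median log2 fold change of -0.14. Ndufc2, an accessory subunit of the membrane arm, lies on chromosome 7 from 97400003 to 97407802 (GRCm38). It stood at 36.5, 50.1, 48.6, and 46.9 CPM in KO mice 1 to 4 and at 58.4, 61.1, 70.6, and 74.1 CPM in flox/flox mice 1 to 4. All KO mice lay below all flox/flox mice. Ndufc2 fell by 31.0% (log2 fold change -0.54 ± 0.12 SE, adjusted p = 0.0339, edgeR quasi-likelihood test). The call was lost in 6 of the 8 fits that left out 1 mouse, where the adjusted p was 0.0615 to 0.112. Over the 8 fits the log2 fold change ranged from -0.59 to -0.44, and the call was kept without KO mouse 1 and without flox/flox mouse 1. The call was also lost in the 5 high-Xist mice (-0.30, adjusted p = 0.0707), without both mice of high mitochondrial share (-0.38, adjusted p = 0.0705), and with library totals in place of TMM, either of all genes (-0.49, adjusted p = 0.245) or without mitochondrial and rRNA genes (-0.43, adjusted p = 0.0894).

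The next member of complex I by p was Ndufb3, another accessory subunit of the membrane arm. Its levels were 15.6 to 20.3 CPM in KO and 20.5 to 26.6 CPM in flox/flox mice, which did not overlap (-0.37 ± 0.12 SE, adjusted p = 0.167). Ndufb2, also of the membrane arm, was the only member with a positive value at an unadjusted p under 0.05, at 16.9 ± 0.778 CPM in KO and 14.2 ± 1.17 CPM in flox/flox mice (SD, n = 4; log2 fold change 0.25 ± 0.10 SE, adjusted p = 0.298). Its groups overlapped, since KO mouse 4 (15.8 CPM) lay below flox/flox mouse 3 (15.9 CPM). Ndufa11b had the positive value with the next smallest p (0.13 ± 0.22 SE, adjusted p = 0.841).

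The 7 nuclear-encoded core subunits of complex I include those that hold its flavin and iron-sulfur clusters and are conserved in bacteria. They had 0 calls and a median log2 fold change of -0.17, and the other 33 members of the complex a median of -0.14. Ndufa4 carries a complex I name but is known as a subunit of complex IV. Its levels were 87.9 to 99.5 CPM in KO and 101 to 131 CPM in flox/flox mice, without overlap (-0.28 ± 0.10 SE, adjusted p = 0.251). Its paralog Ndufa4l2, known as a target of hypoxia-inducible factor, was at 5.64 ± 0.924 and 6.84 ± 0.757 CPM (-0.28 ± 0.17 SE, not called).

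Complex II, the succinate dehydrogenase, is the only complex whose subunits are all nuclear-encoded, and it is also an enzyme of the TCA cycle. It had 0 of 4 members called. Sdhb, the iron-sulfur subunit, stood at 146, 188, 188, and 186 CPM in KO mice 1 to 4 and at 219, 219, 236, and 240 CPM in flox/flox mice 1 to 4. The groups did not overlap, and the log2 fold change was -0.37 ± 0.10 SE at an adjusted p of 0.0919, the smallest among the members not called. DESeq2 called it (adjusted p = 0.0243), as did the fits of all genes with at least 1 count (adjusted p = 0.0415) and with Xist as a covariate (adjusted p = 0.0105). It was called in 0 of the 8 fits without 1 mouse (adjusted p 0.104 to 0.217), and in the 5 high-Xist mice it stood at -0.22 (adjusted p = 0.158).

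The other subunits of complex II overlapped between the genotypes. Sdha, the flavoprotein that oxidizes succinate, had the highest level of the complex per kilobase of exon (118 CPM per kilobase) and a log2 fold change of -0.12 ± 0.08 SE (adjusted p = 0.580). The membrane anchors Sdhc and Sdhd stood at -0.13 ± 0.10 and -0.10 ± 0.09 (log2 fold change ± SE, adjusted p = 0.624 and 0.670). In mice with high Xist only, Sdhc was at 0.051.

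Complex III, the cytochrome bc1 complex, had 0 of 8 members called, 7 negative, and a median log2 fold change of -0.14. Uqcr11, its smallest subunit, stood at 23.5, 34.9, 32.5, and 29.5 CPM in KO mice 1 to 4 and at 37.2, 36.2, 38.8, and 38.9 CPM in flox/flox mice 1 to 4. The genotypes did not overlap, with KO mouse 2 closest to the flox/flox mice (-0.33 ± 0.12 SE, adjusted p = 0.217). Uqcrh, the hinge protein that takes part in electron transfer to cytochrome c, stood at 75.8 ± 10.6 and 93.5 ± 10.2 CPM (SD, n = 4; -0.30 ± 0.11 SE, adjusted p = 0.245), and KO mouse 2 was within the flox/flox range. Uqcr10 had the highest level of the complex per kilobase, 209 CPM per kilobase, and lay lower in all KO mice (93.8 to 121 CPM) than in all flox/flox mice (123 to 144 CPM), at an adjusted p of 0.378. Uqcrb was the 1 member above 0, at 0.076 ± 0.19 SE (adjusted p = 0.903), and 32.1% of its 36-base sequences occur also in other genes, foremost the gene model Gm16089. Cyc1, the cytochrome c1 subunit, whose name the rule does not reach, stood at 208 ± 19.2 and 212 ± 8.05 CPM (-0.03 ± 0.09 SE, adjusted p = 0.927).

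Complex IV, the cytochrome c oxidase, had 1 of 17 members called lower, 17 of 17 negative, and the lowest median of the complexes, -0.21. Several of its members are under 10 CPM, and of these Cox6a2, Cox6b2, Cox4i2, Cox7a1, and Cox7c lay below that median and Cox8b above it. Of the others, Cox7a2l, Cox6c2, and Cox6a1 lay below it and the rest at or above it. Medians by complex without members under 10 CPM were not computed. The summed level of complex IV differed by -9.64%, near those of the other complexes. Cox6a2, the isoform of subunit VIa known from heart and skeletal muscle, lies on chromosome 7 from 128205435 to 128206387. It had 0, 4, 4, and 1 counts in KO mice 1 to 4 and 19, 19, 50, and 34 counts in flox/flox mice 1 to 4. Every KO mouse was thus below every flox/flox mouse, at 0.1203 ± 0.1101 against 1.58 ± 0.822 CPM (SD, n = 4). The log2 fold change was -3.65 ± 0.64 SE (95% interval -5.05 to -2.25, adjusted p = 0.0113), and Cox6a2 was called in 8 of the 8 fits without 1 mouse. No KO mouse had 10 counts, so Cox6a2 met the count filter only through the 4 flox/flox mice. Its call and these fits are therefore not independent of that filter. The call was lost among the 5 high-Xist mice (-2.43, adjusted p = 0.0606). With 9 counts in all, the KO level is near the detection limit, and the size of the fold change is uncertain by the interval given.

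**Figure D4:**
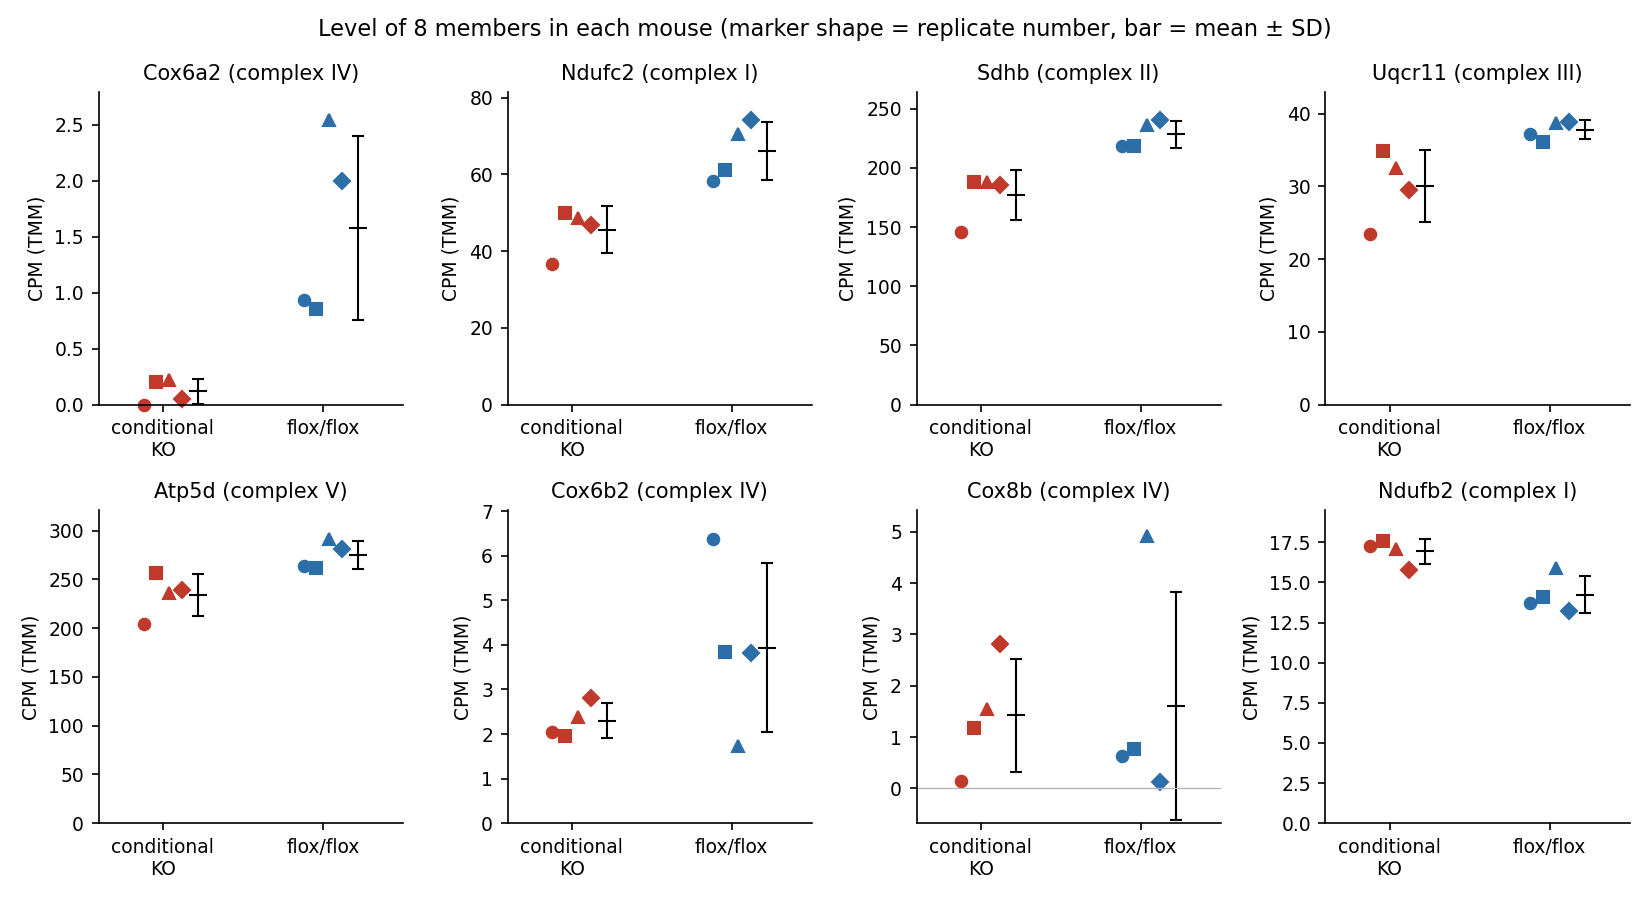
CPM of 8 members in each mouse, KO (red) and flox/flox (blue), with mean ± SD (n = 4) and the replicate number as marker shape. Cox6a2, Ndufc2, Sdhb, Uqcr11, and Atp5d do not overlap between the genotypes, whereas Cox6b2, Cox8b, and Ndufb2 do.

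Markers of skeletal muscle were low in both genotypes. Of 7 listed, 4 were tested and 0 called; their sum was 27.4 to 48.9 CPM in KO and 32.0 to 38.0 CPM in flox/flox mice, nearly all from Ttn, while Myh4 had 0 counts in every mouse and Ckm 0 to 6. The heart gene Myh6 stood at 0.509 to 1.22 CPM over all mice. Cox6a2 shares 10.3% of its exonic bases with Itgad, an integrin gene with 0 counts in every KO mouse and 3 to 7 counts in the flox/flox mice, and reads on shared bases were not counted for either gene. The ubiquitous counterpart Cox6a1 was measured at 335 CPM per kilobase of exon, the highest level of complex IV, against 1.25 CPM per kilobase for Cox6a2. Cox6a1 stood at 217 ± 22.6 and 254 ± 37.5 CPM (SD, n = 4), with overlap (-0.23 ± 0.12 SE, adjusted p = 0.420). Whether the difference of Cox6a2 is particular to this isoform was not tested.

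The other isoform sets of complex IV were also led by the broadly expressed form. Per kilobase of exon, Cox4i1 stood at 230 CPM against 0.783 for Cox4i2, known from lung and from low oxygen, and Cox6b1 at 246 against 2.81 for Cox6b2, known from testis. Cox8a stood at 309 CPM per kilobase against 4.22 for Cox8b, and Cox7a2 at 91.6 against 16.3 for Cox7a1 and 20.6 for the related Cox7a2l, a factor in supercomplexes. None of these 9 genes passed the test in either direction. The log2 fold changes of the minor forms were -0.68 ± 0.42 for Cox4i2, -0.78 ± 0.33 for Cox6b2, -0.27 ± 0.19 for Cox7a1, -0.28 ± 0.16 for Cox7a2l, and -0.19 ± 1.06 for Cox8b. Those of the broadly expressed forms were -0.17 ± 0.11 for Cox4i1, -0.09 ± 0.10 for Cox6b1, -0.04 ± 0.11 for Cox7a2, and -0.06 ± 0.09 for Cox8a. Cox7b was at -0.07 ± 0.11.

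Cox6b2 had 40, 38, 43, and 52 counts in KO mice 1 to 4 and 130, 85, 34, and 65 counts in flox/flox mice 1 to 4, so that flox/flox mouse 3 was the lowest of all 8 mice relative to its depth (1.73 CPM). Cox8b, an isoform known from muscle and brown fat, varied most: it had 3, 23, 28, and 52 counts in KO and 13, 17, 97, and 2 counts in flox/flox mice 1 to 4. Ucp1, which defines brown fat, had 12, 0, 2, and 80 counts in KO and 1, 2, 461, and 0 counts in flox/flox mice 1 to 4. The mouse of each genotype with the most Cox8b counts was also the one with the most Ucp1 counts, and Cidea, another gene of brown fat, had its highest counts in the same mice (34 and 157). The other 3 listed brown fat genes did not follow this pattern in both genotypes: Elovl3 had 0 counts in every KO mouse and 6 in flox/flox mouse 3, Cpt1b was highest in KO mouse 4 (2.60 CPM) but in flox/flox mouse 1 (4.07 CPM), and Ppargc1b was highest in KO mouse 3 (33.0 CPM) and flox/flox mouse 4 (39.2 CPM). The part of brown fat in the Cox8b counts was not tested. Cox6c2 had the next smallest p of complex IV after Cox6a2 and did not overlap, at 35.6 to 41.3 CPM in KO and 42.6 to 50.5 CPM in flox/flox mice (-0.26 ± 0.09 SE, adjusted p = 0.178). It shares 58.2% of its 36-base sequences with other genes, foremost Cox6c, so the counts of both are uncertain.

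Complex V, the ATP synthase, had 0 of 17 members called, 14 negative, and a median log2 fold change of -0.11. Atp5b, the catalytic β subunit, had the highest level of all members, at 421 CPM per kilobase of exon, and stood at 1712 ± 82.7 and 1854 ± 71.8 CPM (SD, n = 4; -0.11 ± 0.09 SE, adjusted p = 0.616). Atp5d, the δ subunit of the central stalk, stood at 204, 256, 236, and 239 CPM in KO mice 1 to 4 and at 264, 262, 291, and 282 CPM in flox/flox mice 1 to 4. The genotypes did not overlap, by a margin of a few CPM between KO mouse 2 and the flox/flox mice 1 and 2 (-0.23 ± 0.09 SE, adjusted p = 0.278). The 5 subunits of the catalytic head and central stalk were all negative, with a median of -0.15, and 0 were called.

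The ring of subunit c, through which protons pass, is encoded by 3 genes whose mature proteins are known to be identical. Atp5g3 was the major form, at 107 CPM per kilobase of exon, with 5.17 for Atp5g1 and 0.906 for Atp5g2. Atp5g3 stood at 214 ± 34.7 and 255 ± 13.4 CPM (SD, n = 4; -0.26 ± 0.12 SE, adjusted p = 0.358), with the lowest value, 165 CPM, in KO mouse 1. Atp5g1 and Atp5g2 had positive values that did not pass the test, 0.12 ± 0.17 and 0.34 ± 0.29 (log2 fold change ± SE). Atp5l, the g subunit of the membrane part, was the third member of complex V above 0, at 0.27 ± 0.19 SE (adjusted p = 0.597).

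The other genes of oxidative metabolism were taken from lists chosen by function. None of the 56 assembly factors tested, which build the complexes but are not part of them, was called, with 36 negative and a median log2 fold change of -0.040. None of the 77 proteins of the mitochondrial ribosome was called, with 57 negative and a median of -0.087. In the TCA cycle and its feeding reactions 1 of 19 was called: Pcx, pyruvate carboxylase, fell from 726 ± 91.0 to 454 ± 35.6 CPM (SD, n = 4; log2 fold change -0.68 ± 0.11 SE, adjusted p = 0.00656). The median of that list was -0.13, close to that of the members, and 14 of the 19 were negative. Among 19 electron and substrate carriers, Etfb, the β subunit of the electron transfer flavoprotein that feeds electrons from fatty acid oxidation, was called lower (41.1 ± 11.03 to 25.3 ± 1.31 CPM, -0.70 ± 0.16 SE, adjusted p = 0.0453), and the median was -0.055. The call of Etfb was kept in the fits without flox/flox mouse 1, 2, or 4 and lost in the other 5 (adjusted p up to 0.129). Ndufab1, the acyl carrier protein that is also part of complex I but outside the name rule, stood at 0.21 ± 0.10 SE (adjusted p = 0.396).

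Of 24 transcriptional regulators of mitochondrial genes, 1 fell and 1 rose. Ppara, a nuclear receptor for fatty acid oxidation, fell from 112 ± 10.5 to 63.4 ± 8.13 CPM (-0.83 ± 0.11 SE, adjusted p = 0.00147), and Gabpb1, a subunit of the ETS-family factor GABP (NRF2), rose from 12.5 ± 1.17 to 17.9 ± 1.204 CPM (0.52 ± 0.11 SE, adjusted p = 0.0314). Neither overlapped between the genotypes. With library totals in place of TMM, neither was called (adjusted p = 0.0520 for Ppara and 0.124 for Gabpb1). The call of Gabpb1 was kept in the fits without KO mouse 1 and without flox/flox mouse 4 and lost in the other 6 (adjusted p up to 0.129). The median of the regulators was -0.054, with 14 of 24 negative.

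**Figure D5:**
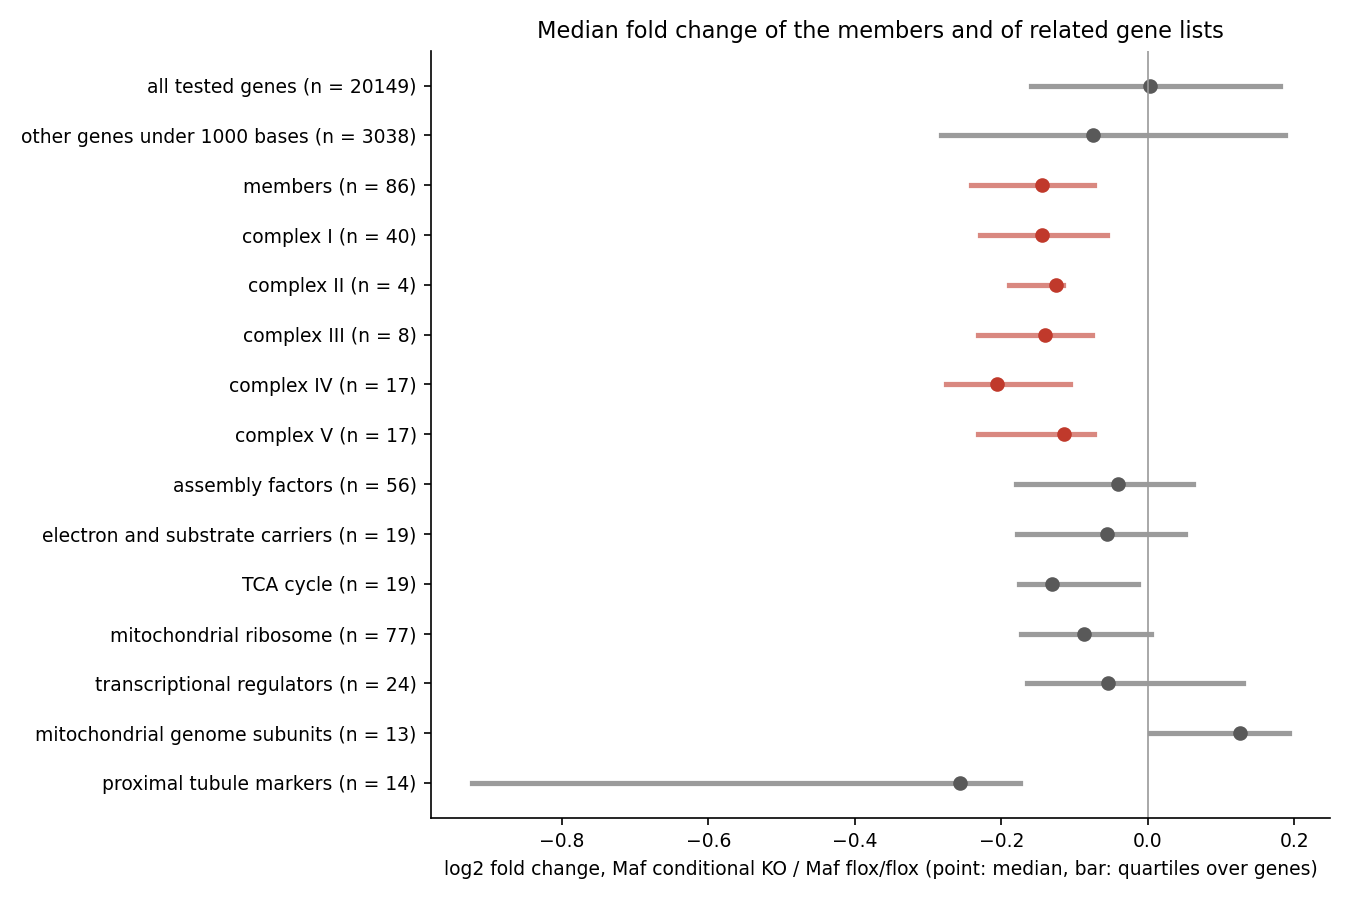
Median log2 fold change (point) and quartiles over genes (bar) of all tested genes, other short genes, the members, each complex, and related gene lists. The medians of the complexes lie between -0.21 and -0.11, that of the subunits of the mitochondrial genome at 0.13, and that of the proximal tubule markers at -0.26.

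In whole kidney, fewer cells of a type and less RNA per cell cannot be told apart. The 14 proximal tubule markers, of which 12 were negative and 2 called lower (Slc34a1 and Slc5a12), summed to 19716 to 22257 CPM in KO and 22729 to 29541 CPM in flox/flox mice, without overlap (-20.1%), with a median log2 fold change of -0.26. The 6 thick limb markers summed to 4103 to 6954 CPM in KO, lowest in mouse 1, and 5774 to 7078 CPM in flox/flox mice, and 0 were called. The 7 macrophage markers summed to 108 to 118 CPM in KO and 92.5 to 102.3 CPM in flox/flox mice, also without overlap (14.6% higher in KO) and with 0 called. The 5 markers of smooth muscle and mural cells, of which 0 were called, summed to 163 to 216 CPM in KO and 144 to 216 CPM in flox/flox mice. The 6 endothelial markers did not overlap, summing to 391 to 407 CPM in KO and 417 to 477 CPM in flox/flox mice (-10.3%), with 5 negative and a median log2 fold change of -0.13. Of these 6, Kdr, a receptor for vascular endothelial growth factor, was called lower (-0.37 ± 0.09 SE, adjusted p = 0.0450), but in 0 of the 8 fits without 1 mouse (adjusted p 0.0552 to 0.138). The 5 hepatocyte markers tested summed to 137 to 1402 CPM in KO and 93.7 to 649.9 CPM in flox/flox mice, mostly from Cyp2e1, which was highest in the 3 mice of low Xist. Of these, Ttr, a carrier of thyroid hormone in plasma, was called lower (1.26 ± 1.27 against 41.4 ± 17.7 CPM, adjusted p = 0.0152), and the call was lost without KO mouse 3 (adjusted p = 0.0752) or 4 (0.0505). The summed markers of distal convoluted tubule, collecting duct, and podocytes overlapped between the genotypes, with 0 called. The part of these cell types in the members' difference was not tested.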

How the data were processed

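The authors deposited unnormalized counts per gene name for 8 whole-kidney libraries, which the file header credits to featureCounts on Ensembl exons of GRCm38. The header command counted each read of a pair, ignored strand although the kit keeps it, and left out reads that map to several places or overlap several genes. Counts are therefore lowered for the 11 members that share at least 10% of their exonic bases with an overlapping gene, and are uncertain for members with near-copies, such as Ndufb4c (100% of its 36-base sequences occur in other genes, foremost Ndufb4) and Cox6c2 (58.2%, foremost Cox6c). Counts of 13 pseudogene names were left out by the rule.

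Genes passing filterByExpr (20149) were scaled by TMM and compared with the robust quasi-likelihood test in edgeR 4.0.16 (R 4.3.3), without covariates, and called at a Benjamini-Hochberg adjusted p under 0.05 over all tested genes. Each SE was taken from the F statistic, as the size of the log2 fold change over its square root. Only members passing in at least 4 libraries were kept. All 86 passed the test's filter. Complexes were assigned by symbol. Medians and sums are descriptions without a test. The labels do not state how the replicates were bred, so p-values measure the spread between these mice.

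Genes were named by a rule: called members, the 2 smallest p in each direction for complexes I, III, IV, and V (all of complex II), the highest level per kilobase of each complex, isoform sets, Maf, called genes of the other lists, Cyc1, and Ndufab1. The others named were chosen after their values were seen. A gene that this rule names is not reported here. Members, lists, and tests were chosen with earlier results of these data known, and the lists of brown fat, heart, and smooth muscle genes were added later. Alternatives were RLE and upper-quartile factors, DESeq2 1.42.0, edgeR's exact test, other filters, length and GC curves, Xist, the replicate block, and each mouse left out. The scripts were tested on simulated data. Figures used matplotlib 3.10.9 in Python 3.11.15. 0 columns of values were unused.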

Additional observations from a re-analysis of the deposited data

Results flagged for a closer look

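In groups of 4 mice, a mouse was marked where its gap to the nearest of the others, divided by the range of the group, was above Dixon's 95% critical value. Of 82 groups examined (41 quantities in each genotype), 4 were marked, and chance marks about 1 in 20. Sdhb had a ratio of 0.940 in KO mice, because mouse 1 (146 CPM) lay below the others (186 to 188 CPM). Uqcr10 had a ratio of 0.932 in KO mice, where mouse 1 (93.8 CPM) lay below the others (119 to 121 CPM). Ndufa4 had a ratio of 0.842 in KO mice, where mouse 4 (87.9 CPM) lay below the others (97.6 to 99.5 CPM). Cox8b had a ratio of 0.865 in flox/flox mice, where mouse 3 (4.92 CPM) lay above the others (0.117 to 0.767 CPM). That mouse also had 461 counts of Ucp1, against 0 to 2 in the other flox/flox mice.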

How the results depend on the processing

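The number of members called lower was 2, where 1.58% of all genes were. It was 6 with the Xist covariate (4.23% of all genes), 1 in the high-Xist mice (2.22%), and 0 with the replicate block (0.551%). At an adjusted p under 0.01 it was 0 (0.715%), and without single mice it was between 1 and 2 (0.913% to 1.51%). It was 3 (with Sdhb) with DESeq2 (2.81%), with all genes of at least 1 count (1.08%), and at an adjusted p under 0.1 (2.45%). Under alternatives chosen after seeing the data it was 0 with the length curve and replicate block (0.566%). Among these it was 1 with library totals (0.893%), with library totals without mitochondrial and rRNA genes (1.08%), and without both mice of high mitochondrial share (1.28%). The block took the adjusted p of Cox6a2 to 0.0639, Ndufc2 and Pcx to 0.0892, Maf to 0.0516, Ttr to 0.0635, Etfb to 0.192, Gabpb1 to 0.141, and Kdr to 0.193, and with the length curve that of Pcx to 0.0899, Cox6a2 to 0.0634, and Ndufc2 to 0.115. Etfb and Gabpb1 were also not called with the GC curve (0.11 and 0.0633), nor Etfb with upper-quartile factors (0.0519), and Kdr was not called under 16 of 24 alternatives. Deviations of same-numbered mice correlated at -0.373, 0.152, -0.11, and -0.331, and KO mouse 2 correlated best with flox/flox mouse 2. With so few mice, these values cannot decide whether the replicate numbers pair the mice. Over all genes, 318 lower and 118 higher became 567 and 320 with DESeq2, 424 and 252 with the exact test, 853 and 522 with Xist, 467 and 322 in the high-Xist mice, 111 and 18 with the block, and 217 and 193 with library totals without mitochondrial and rRNA genes, where the median of all genes was 0.0956.

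Of 155 medians of the members or a complex under alternatives, 154 were negative and 151 moved by less than 1 SD between mice. That SD was 0.10 for all members and 0.089 to 0.146 for the complexes, while the members' median was -0.14. A shift of most of the median could therefore stay within it, so this count says little about stability. With library totals without mitochondrial and rRNA genes, a members' median of -0.044 was still within it. In high-Xist mice the medians were -0.036 for all members, -0.023 for complex I, and -0.046 for complex IV, and that of complex V was 0.0057. With library totals without mitochondrial and rRNA genes, complex II was at -0.026. Without single mice the median of all members ranged from -0.19 to -0.11. What moves them in the high-Xist mice was not tested, and that fit has 5 mice.

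Of 1080 values of 45 genes (those of the naming rule and the called cell type markers), 36 in 10 genes changed sign, all in genes not called (log2 fold changes follow). Upper-quartile factors gave 0.0058 for Cox7a2 and 0.015 for Cyc1. The length curve gave 0.0057 for Cox7a2 and 0.0043 for Cox8a, and with the block 0.0023 for Cox8a and 0.19 for Cox8b. Cox8b was 0.045 with Xist and 0.11 with the replicate block. High-Xist mice gave 0.051 for Sdhc, 0.014 for Cox6a1, 0.055 for Cox6b1, 0.032 for Cox7a2, 0.072 for Cox7b, 0.029 for Cox8a, 1.38 for Cox8b, and 0.060 for Cyc1. The GC curve gave -0.035 for Uqcrb, 0.050 for Cox8a, and 0.085 for Cyc1. Library totals gave 0.0066 for Cyc1, and without mitochondrial and rRNA genes 0.011 for Cox6b1, 0.060 for Cox7a2, 0.026 for Cox7b, 0.040 for Cox8a, and 0.069 for Cyc1. Without both mice of high mitochondrial share, Cox7b was 0.056 and Cyc1 0.029. Without single mice, Uqcrb ranged from -0.087 to 0.19, Cox7a2 from -0.12 to 0.053, Cox7b from -0.15 to 0.016, Cox8b from -0.76 to 1.44, Atp5g1 from -0.022 to 0.25, and Cyc1 from -0.060 to 0.038. At the depth here, Cox6a2, Cox4i2, Cox8b, and Atp5g2 had under 100 counts in every mouse, which limits their precision.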
